A study of Arabidopsis thaliana with 6 samples.

Results

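Most of the genes described here code for structural proteins of the plant cell wall and for the peroxidases and laccase that oxidise wall components. A few, described last, only share a word with these families. The members were chosen by short description from the 1537 genes in the deposited table. The 52 chosen name an extensin, a proline-rich, glycine-rich, arabinogalactan or fasciclin-like protein, a laccase or a peroxidase. Glutathione peroxidases, ascorbate peroxidases and kinases were left out. RNA was sequenced from whole seedlings of Arabidopsis thaliana, ecotype Columbia, grown for 10 days in long days on MS plates. There were 3 libraries of the wild type (Col-0) and 3 of BIC1-YFP, a line of the same ecotype with BIC1 fused to yellow fluorescent protein (YFP). The sources used here name neither the promoter of that fusion nor the number of lines. The libraries are called WT1, WT2 and WT3 for the wild type and YFP1, YFP2 and YFP3 for BIC1-YFP, by their replicate numbers. BIC1 inhibits the blue-light receptors called cryptochromes, and the comparison addresses its role in brassinosteroid signalling and growth.

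Extensins are rod-like glycoproteins built from repeats of a serine followed by a run of prolines. The prolines are hydroxylated and the serines and hydroxyprolines carry sugars. Class III peroxidases, secreted haem enzymes, use hydrogen peroxide to link extensins through their tyrosines and to polymerise lignin, which stiffens a wall, and they can also produce reactive oxygen. Arabinogalactan proteins are heavily glycosylated surface proteins, many of them held to the plasma membrane by a lipid anchor. Many extensins of Arabidopsis are expressed in root hairs, where the wall of a single cell grows at its tip.

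Abundance is given in the authors' normalized units. The unit is not stated and was taken as not scaled to gene length, so levels are compared between libraries and not between genes. The depth of the libraries is unknown, and the units of the listed genes sum to between 1801800 and 2064620 per library. The authors had chosen the listed genes for a difference between these same libraries, so calls among them are not independent evidence of a difference. BIC1 itself stood at 409, 351 and 260 units in the wild type and at 16272, 14597 and 21868 in BIC1-YFP. On the first principal component of the tested genes, which held 67.5% of the variance, WT3 (-14.2) lay nearer to the BIC1-YFP libraries (17.8 to 29.2) than WT1 (-29.6) and WT2 (-28.2) did. The low values also differed in kind by replicate number. Among values above 0 and under 15 units, the share lying within 0.05 of an integer was 95.9% for WT1 and 100% for YFP1, while it ranged from 5.38% to 10.1% in the other libraries. The labels call the libraries of a genotype biological replicates, with nothing further on separate cultures. Because whole seedlings were sampled, fewer cells of a type and less RNA per cell cannot be told apart.

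The wall protein families went in different directions in BIC1-YFP. Of the 52 members, 26 had a higher and 26 a lower fitted abundance. Most extensins fell and arabinogalactan and most glycine-rich proteins rose, while peroxidases were split. A gene was called at a limma adjusted p under 0.05 (Benjamini-Hochberg over the 1531 tested genes), on the scale log2(value + 1), which understates the change of low genes. All 52 members passed the filter on low values. Of these, 24 were called higher and 22 lower (46.2% and 42.3%), against 37.6% and 39.1% of all tested genes. The 26 higher members include 4 of other kinds and 2 late embryogenesis abundant proteins, which only share a word with the families. Of these, 3 and 2 were called higher. In total 46 members (88.5%) were called, against 76.6% of the tested genes. For 44 members every library of one genotype lay above every library of the other, which also held for 76.0% of the tested genes. The median log2 fold change was 0.00 over the members and 0.56 over all tested genes. Neither median is a typical change, because genes with small changes were left out of the deposited table. The medians follow mainly from how many genes were higher and lower, 26 and 26 members and 804 and 727 tested genes. Without YFP2, 17 members were called, and 24 were called without WT1 or without WT2. The number was 27 without YFP3, 39 without YFP1 and 48 without WT3. Over all tested genes the calls went from 1173 to 469 without YFP2, 623 without WT1 and 625 without WT2. They numbered 715 without YFP3, 983 without YFP1 and 1218 without WT3, so calls were also lost outside the members. The members called lower lost a larger share: 22 became 7 without WT1, 8 without WT2 and 6 without YFP2. All genes called lower went from 598 to 316, 303 and 256. The members called higher lost a smaller share: 24 became 17, 16 and 11, against 575 to 307, 322 and 213 over all genes. Within replicate 1 (WT1 and YFP1), and separately within replicates 2 and 3 together, all 52 members had the direction of the whole comparison. For the 44 members without overlap this was fixed in advance. The others were also listed for a difference between these libraries, so the shared direction is not evidence of a difference. With the replicate 1 libraries as a batch term, an alternative chosen after seeing the data, 49 members were called. Adjusted over 21420 tests, the number that the smallest deposited p-value implies, only GRP3S stayed called. That number need not hold for every gene. LRX1 has a smaller deposited p-value than AT4G33420 but a larger adjusted one, so the deposited values do not come from 1 common adjustment.

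**Figure D1:**
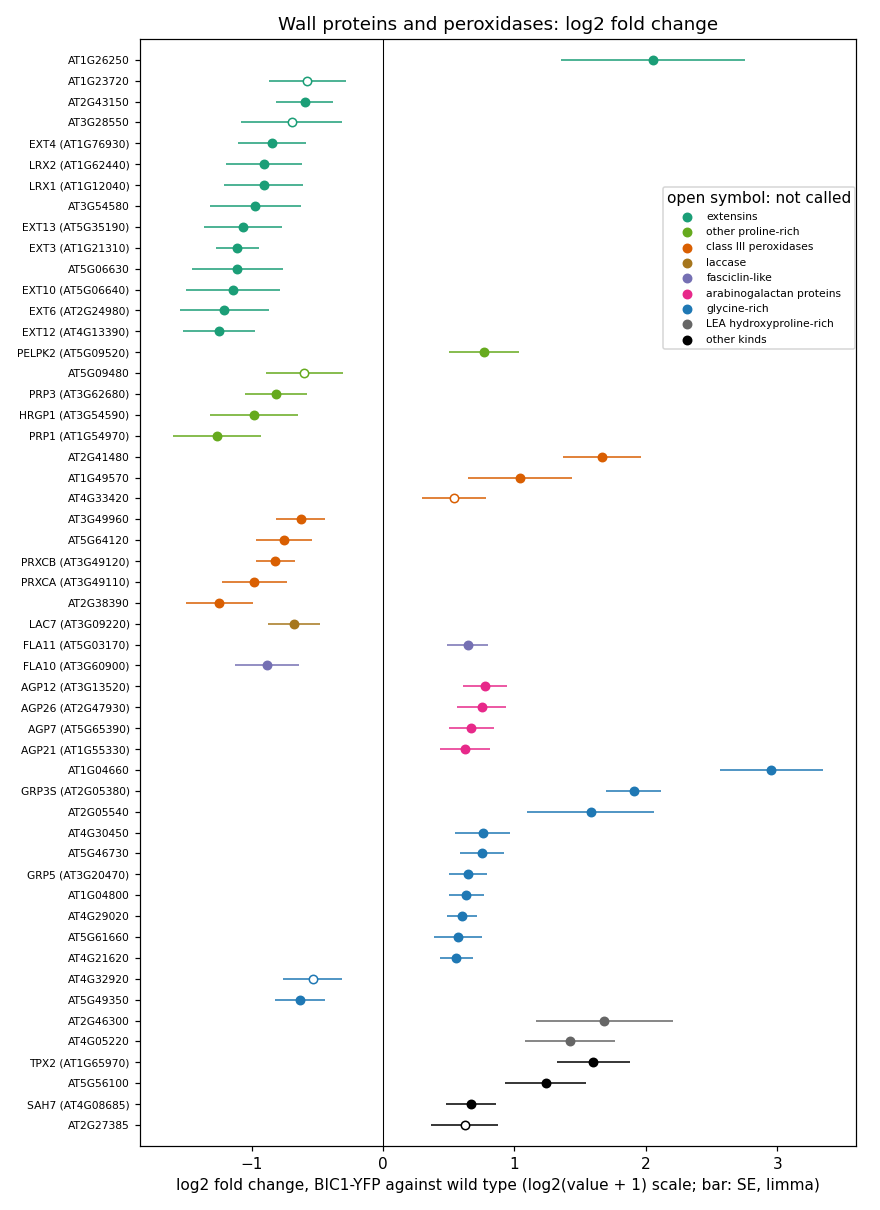
Log2 fold change of each of the 52 genes in BIC1-YFP against the wild type (x axis, log2(value + 1) scale) by family (colour), with the standard error of limma as a bar and an open symbol for the 6 genes that were not called. Of the 14 extensins 13 lie left of 0, and all 4 arabinogalactan proteins and 10 of 12 glycine-rich proteins lie right of it.

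Extensins formed the family with the most members, and 11 of the 14 fell while 1 rose (78.6% and 7.14% of the family, against 39.1% and 37.6% of the tested genes). The median log2 fold change of the 14 was -0.94. The repeat that defines them is visible in the genes. In the coding sequences of RefSeq (TAIR10.1), a serine codon directly followed by 4 proline codons, here called a Ser-Pro4 block, occurred 28 times in EXT3, 22 times in EXT12 and 24 times in LRX1. The following in-frame stretches of 150 bases, each from 1 exon and read on the coding strand, show where the blocks lie densest, with each block in capitals. They come from chr1:7454689-7454838 (minus strand) for EXT3, chr4:7784270-7784419 (plus strand) for EXT12 and chr1:4071606-4071755 (plus strand) for LRX1.
EXT3: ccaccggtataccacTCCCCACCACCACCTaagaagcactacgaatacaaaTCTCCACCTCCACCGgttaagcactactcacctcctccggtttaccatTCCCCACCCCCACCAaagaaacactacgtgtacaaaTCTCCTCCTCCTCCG
EXT12: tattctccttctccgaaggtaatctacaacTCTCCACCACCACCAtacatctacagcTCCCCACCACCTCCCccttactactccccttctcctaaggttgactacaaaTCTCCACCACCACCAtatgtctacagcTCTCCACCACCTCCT
LRX1: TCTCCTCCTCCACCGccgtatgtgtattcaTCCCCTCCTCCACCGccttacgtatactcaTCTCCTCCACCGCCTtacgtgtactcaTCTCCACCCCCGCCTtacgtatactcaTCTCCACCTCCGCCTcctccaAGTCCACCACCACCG
The codons between the blocks are mostly those for tyrosine, lysine, valine and histidine in EXT3, whereas in the LRX1 stretch most blocks are separated by short spacers that contain tyrosine, and the last pair by proline codons alone.

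Only 32 of the 27312 coding genes of the reference (0.117%) had 5 or more Ser-Pro4 blocks, and 15 of these were among the tested genes. All 15 were members, namely the 14 extensins and HRGP1. Of the 15, 14 were lower in BIC1-YFP, of which 12 were called, and 1 was higher and called. The 13 extensins with lower abundance had 9 to 70 blocks each and a proline codon share of 22.5% to 42.5%, with a median of 35.9%. The single higher extensin, AT1G26250, had 28 blocks and a proline share of 44.5%: its block count lay within the range of the 13 lower ones and its proline share just above it. The block count came from the sequences alone, but the descriptions that chose the members were themselves derived from sequence.

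EXT3 (AT1G21310), an extensin needed for wall assembly at cell division in the embryo, stood at 8886, 8363 and 6958 units in WT1, WT2 and WT3 and at 4371, 3146 and 3754 in YFP1, YFP2 and YFP3. Every BIC1-YFP library lay below every wild-type library, and the fall was 2.15-fold (limma log2 fold change -1.11 with an SE of 0.17, adjusted p = 0.0048). EXT12 (AT4G13390) stood at 122, 210.3 and 119.6 units in WT1, WT2 and WT3 and at 67.1, 64.0 and 52.0 in YFP1, YFP2 and YFP3. WT2 was well above the other two, and all 3 BIC1-YFP libraries lay close together below them (2.47-fold lower, limma log2 fold change -1.25 with an SE of 0.28, adjusted p = 0.013). These were the extensin calls that held with each library left out in turn.

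The extensin genes EXT6 (AT2G24980), EXT10 (AT5G06640) and AT5G06630 fell by similar amounts. EXT6 stood at 90.3, 150.0 and 76.9 units in the wild type and 54.1, 30.9 and 48.6 in BIC1-YFP (2.38-fold lower, limma, adjusted p = 0.022). EXT10 stood at 80.3, 101 and 67.0 units in the wild type and 39.1, 55.0 and 22.3 in BIC1-YFP (2.13-fold lower, limma, adjusted p = 0.028), and AT5G06630 at 52.2, 76.9 and 61.3 units in the wild type and 45.1, 25.5 and 20.1 in BIC1-YFP (2.1-fold lower, limma, adjusted p = 0.027). The genotypes did not overlap for any of the 3. EXT10 and AT5G06630 are neighbours on chromosome 5, on the same strand and 1742 bases apart, and EXT6 and AT5G06630 share short stretches: 4.12% of the 50-base windows of the EXT6 coding sequence and 4.55% of those of AT5G06630 occur in another coding sequence, most often in each other. Reads from such stretches may have been divided between the genes, so these values are uncertain to that extent.

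EXT4 (AT1G76930), whose overexpression thickens stems, stood at 2241, 1326 and 1754 units in the wild type and 1024, 728 and 1199 in BIC1-YFP, a 1.8-fold fall without overlap (limma log2 fold change -0.85 with an SE of 0.26, adjusted p = 0.026). AT2G43150 stood at 3179.5, 2566 and 2021 units in the wild type and 2026, 1393 and 1692 in BIC1-YFP. YFP1 lay just above WT3, so the genotypes overlapped, although the 1.52-fold fall passed the test (limma, adjusted p = 0.04). Its values and those of AT3G54580, which stood at 722, 966 and 383 units in the wild type and 404, 307 and 284 in BIC1-YFP (2.08-fold lower, also with overlap), were called with a variance trend but not without one (limma without trend, adjusted p of 0.064 for AT2G43150 and 0.051 for AT3G54580). EXT13 (AT5G35190), at 120.4, 157 and 80.3 units in the wild type and 66.1, 51.2 and 47.5 in BIC1-YFP, fell 2.17-fold with no overlap (limma, adjusted p = 0.022).

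Of the extensins, 2 did not pass. AT3G28550 stood at 521, 869 and 307 units in the wild type and 415, 274 and 286 in BIC1-YFP, and AT1G23720 at 489.6, 624 and 310.0 units in the wild type and 381, 262 and 286 in BIC1-YFP (limma, adjusted p of 0.12 and 0.096). In both, WT2 was the highest library and WT3 lay below YFP1. Without WT3 both passed, each at a limma adjusted p of 0.025. In the authors' deposited table the adjusted p of the 6 members not called here lay between 0.000767 and 0.0483. AT1G26250, the extensin-like gene that rose, was listed at 1.01, 0 and 3.36 units in the wild type and at 4.01, 7.43 and 13.9 in BIC1-YFP. The groups did not overlap, but the values are near the lower end of the table (limma log2 fold change 2.06 with an SE of 0.70, adjusted p = 0.034).

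**Figure D2:**
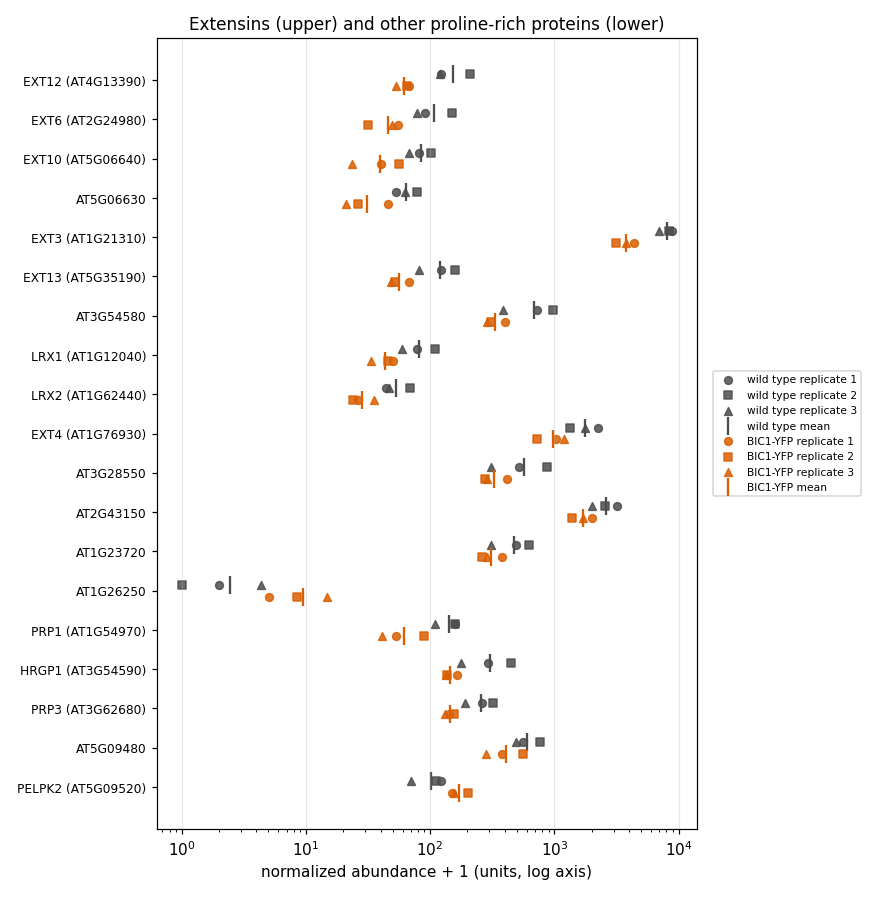
Normalized abundance plus 1 (x axis, log scale) of each extensin and other proline-rich gene in wild type (grey) and BIC1-YFP (orange), with 1 symbol shape per replicate and a vertical bar at the mean of 3. For EXT3 the wild-type libraries sit between 6958 and 8886 units and the BIC1-YFP libraries between 3146 and 4371.

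The wild-type libraries differed among themselves in these genes. Among the 13 extensins with lower abundance, WT2 was the highest wild-type library for 10 and WT3 the lowest for 10. Over all 727 tested genes that were lower in BIC1-YFP, those shares were 39.1% and 55.7%. The median level of the 13, relative to each gene's wild-type mean on the log2(value + 1) scale, was 0.01, 0.45 and -0.33 in WT1, WT2 and WT3 and -0.76, -1.14 and -1.10 in YFP1, YFP2 and YFP3. Every BIC1-YFP median was below every wild-type one. The extensin calls numbered 3 without WT2, 3 without YFP2, 5 without WT1, 5 without YFP3, 10 without YFP1 and 14 without WT3. EXT13 lost its call without WT1, WT2, YFP2 or YFP3, as did AT2G43150, AT3G54580 and AT1G26250. EXT6 lost its call without WT2 or YFP2, EXT4 without WT1 or YFP2, AT5G06630 without WT2, YFP2 or YFP3 and EXT10 without WT1, WT2, YFP1 or YFP3. The limma adjusted p of these lost calls lay between 0.051 and 0.12.

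Extensins and proline-rich proteins of root hairs fell together in BIC1-YFP. LRX1 (AT1G12040), a chimera of leucine-rich repeats and an extensin that sits in the root hair wall and shapes hair growth, stood at 77.2, 108 and 58.3 units in WT1, WT2 and WT3 and at 49.1, 44.8 and 32.2 in YFP1, YFP2 and YFP3. All wild-type libraries lay above all BIC1-YFP libraries (1.93-fold lower, limma log2 fold change -0.91 with an SE of 0.30, adjusted p = 0.031). Its paralog LRX2 (AT1G62440), which acts with LRX1 in root hairs, stood at 43.1, 67.9 and 46.0 units in the wild type and 25.0, 22.7 and 34.1 in BIC1-YFP, 1.92-fold lower and also without overlap (limma, adjusted p = 0.029). PRP1 (AT1G54970), a proline-rich protein expressed in roots, stood at 157, 158 and 108 units in the wild type and 52.1, 89.0 and 39.9 in BIC1-YFP (2.33-fold lower, limma log2 fold change -1.27 with an SE of 0.34, adjusted p = 0.02). PRP3 (AT3G62680), a proline-rich protein of the root hair wall, stood at 259.9, 321 and 190.1 units in the wild type and 140.2, 156 and 132 in BIC1-YFP (1.8-fold lower, limma, adjusted p = 0.023). Neither gene overlapped between the genotypes. These 4 genes were all that the table held of a list of 16 root hair genes, and all 4 were called lower, against 39.1% of the tested genes. All 4 are also among the 52 genes described here, so they add no further genes, and AGP21, a gene linked to root hair formation that was not on the list, was called higher. The list was chosen with earlier results of these data known. LRX1 and PRP3 were no longer called without WT1, WT2, YFP2 or YFP3, LRX2 without WT2, YFP1 or YFP2 and PRP1 without WT1 or WT2 (limma, adjusted p between 0.053 and 0.093 over these).

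The same 4 genes were the members whose promoters held the root hair element, a motif described in Arabidopsis root hair genes. The 300 bases before the annotated start of each gene (RefSeq, TAIR10.1) are printed on the strand of the gene with the match in capitals, since the 4 genes moved together. The element was searched on both strands. The windows are chr1:4069692-4069991 for LRX1, chr1:23112633-23112932 for LRX2, chr1:20504601-20504900 for PRP1 and chr3:23182422-23182721 for PRP3, all on the plus strand.
LRX1: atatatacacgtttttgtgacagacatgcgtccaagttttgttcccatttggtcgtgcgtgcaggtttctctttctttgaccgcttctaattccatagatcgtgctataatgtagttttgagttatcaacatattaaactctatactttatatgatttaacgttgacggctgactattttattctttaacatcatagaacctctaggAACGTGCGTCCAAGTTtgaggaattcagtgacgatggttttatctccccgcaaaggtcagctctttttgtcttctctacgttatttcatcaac
LRX2: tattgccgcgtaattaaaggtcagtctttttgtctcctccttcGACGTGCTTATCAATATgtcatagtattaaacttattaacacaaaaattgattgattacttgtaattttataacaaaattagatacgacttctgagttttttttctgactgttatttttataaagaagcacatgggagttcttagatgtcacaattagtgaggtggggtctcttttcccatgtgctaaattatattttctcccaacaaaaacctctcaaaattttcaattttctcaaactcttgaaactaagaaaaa
PRP1: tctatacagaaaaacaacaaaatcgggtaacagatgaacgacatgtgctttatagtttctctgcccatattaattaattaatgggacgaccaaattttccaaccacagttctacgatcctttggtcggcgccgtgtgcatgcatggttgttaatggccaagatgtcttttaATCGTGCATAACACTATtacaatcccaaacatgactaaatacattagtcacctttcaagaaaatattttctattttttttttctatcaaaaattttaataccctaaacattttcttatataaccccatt
PRP3: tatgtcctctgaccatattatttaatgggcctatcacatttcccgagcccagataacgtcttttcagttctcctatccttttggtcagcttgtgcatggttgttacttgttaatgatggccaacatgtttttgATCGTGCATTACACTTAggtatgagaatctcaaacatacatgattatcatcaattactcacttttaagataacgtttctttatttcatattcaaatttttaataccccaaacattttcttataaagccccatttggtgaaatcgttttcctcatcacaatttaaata
The element was found in 4 of the 26 members with lower abundance (15.4%) and in 0 of the 26 with higher abundance. It was found in 1.89% of the tested genes that were lower, 0.778% of those that were higher and 0.915% of the 27438 coding genes of the reference. The motif was described in root hair genes, so its presence in these 4 listed root hair genes is not independent of the list. A match is a description of the letters and not a binding site.

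Other motifs linked to brassinosteroid and light signalling were searched in the same windows on both strands. The brassinosteroid response element, CGTGTG or CGTGCG, was found in 8 of the 26 lower members (30.8%) and 2 of the 26 higher ones (7.69%). The shares were 9.59% and 10.1% among the tested genes that were lower and higher, and 7.64% among all coding genes. The 8 lower members with a match included the extensins LRX1, EXT6, EXT10, EXT12 and AT5G06630. Of these, EXT10 and AT5G06630 are neighbours, and EXT6 and AT5G06630 share coding stretches, so they are not independent points. In LRX1 a match overlapped the root hair element. The G-box, CACGTG, was found in 1 lower and 1 higher member (3.85% of each). Its shares were 10.0% and 12.6% among the lower and higher tested genes and 7.09% among all coding genes. It overlapped neither of the other motifs in any member. The deposited descriptions name the root as a site of expression for 10 of the 26 lower members (38.5%), 2 of the 26 higher members (7.69%) and 4.75% of the table. Many descriptions could not name it. Sites of expression were described for 19 lower members, 15 higher members and 824 genes of the table. For 9, 12 and 658 of these only a number of plant structures was given. The shares therefore also depend on the form of the description. Root markers were few in the table. Of a list of 9 root genes it held PRP3 and the iron transporter gene IRT1 (AT4G19690), which stood at 98.3, 105 and 24.5 units in the wild type and 36.1, 53.3 and 5.92 in BIC1-YFP and did not pass (limma, adjusted p = 0.15). The part of root tissue or root hair number in these falls was not tested.

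The remaining proline-rich genes were split. HRGP1 (AT3G54590), a hydroxyproline-rich glycoprotein with 51 Ser-Pro4 blocks, stood at 294, 445 and 175 units in the wild type and 162, 136 and 133 in BIC1-YFP and fell 2.12-fold (limma log2 fold change -0.98 with an SE of 0.34, adjusted p = 0.034). It is divergently transcribed from the extensin gene AT3G54580, with 2208 bases between them on chromosome 3, and both fell. Their coding sequences share some 50-base windows, 3.12% of those of HRGP1 and 3.40% of those of AT3G54580. PELPK2 (AT5G09520), named for its repeated peptide motif, stood at 120.4, 111 and 69.6 units in the wild type and 148, 202 and 156 in BIC1-YFP and rose 1.68-fold (limma, adjusted p = 0.036). AT5G09480, 6455 bases from PELPK2 and on the same strand, had a lower fitted abundance, at 556, 769 and 489 units in the wild type and 379.5, 562 and 281 in BIC1-YFP, with overlap, and did not pass (limma, adjusted p = 0.091). HRGP1 lost its call without each library but WT3, and PELPK2 without each library but WT1 (limma, adjusted p between 0.052 and 0.11). PELPK2 also lost it under median-ratio scaling (limma, adjusted p = 0.055). Calls among the 5 proline-rich genes not described as extensins, 4 in all, numbered 0 without WT2, 1 without WT1, YFP2 or YFP3 and 2 without YFP1.

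Class III peroxidases moved in both directions: of 8, 5 fell and 2 rose (62.5% and 25.0%, against 39.1% and 37.6% of the tested genes). PRXCB (AT3G49120, also PRX34), a cell wall enzyme linked to cell elongation and to the hydrogen peroxide burst of defence, stood at 2375, 1848 and 2105 units in WT1, WT2 and WT3 and at 1182, 1115 and 1270.3 in YFP1, YFP2 and YFP3. All BIC1-YFP libraries lay below all wild-type libraries (1.77-fold lower, limma log2 fold change -0.82 with an SE of 0.15, adjusted p = 0.0076). PRXCA (AT3G49110, also PRX33), its tandem paralog with the same known roles, stood at 269, 173 and 228 units in the wild type and 112, 89.7 and 135 in BIC1-YFP and fell 1.99-fold with no overlap (limma, adjusted p = 0.018). The pair lies 4385 bases apart on chromosome 3 on the same strand, and 9.74% of the 50-base windows of PRXCA occur in PRXCB or another gene, so a small part of the reads may be shared.

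AT2G38390 had the largest fall among the peroxidases. It stood at 733, 654 and 649 units in the wild type and 379.5, 312 and 196 in BIC1-YFP, 2.29-fold lower (limma log2 fold change -1.25 with an SE of 0.26, adjusted p = 0.011), and YFP3 was the lowest library. AT5G64120 (PRX71), a wall-bound enzyme that takes part in lignification, stood at 2977, 1918 and 3179 units in the wild type and 1579, 1429 and 1669 in BIC1-YFP and fell 1.73-fold (limma, adjusted p = 0.022). AT3G49960, a peroxidase whose expression is enriched in root hair cells, stood at 335, 326 and 248 units in the wild type and 186, 204 and 193 in BIC1-YFP and fell 1.56-fold (limma, adjusted p = 0.024). None of these 3 overlapped between the genotypes.

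Against this, AT2G41480 (PRX25), also a wall-bound peroxidase of lignification, stood at 37.1, 63.5 and 37.8 units in WT1, WT2 and WT3 and at 142, 183 and 115 in YFP1, YFP2 and YFP3. The lowest BIC1-YFP library lay above the highest wild-type library, a 3.18-fold rise (limma log2 fold change 1.67 with an SE of 0.30, adjusted p = 0.0072). AT1G49570 stood at 13.1, 21.3 and 35.2 units in the wild type and 37.0, 42.4 and 58.8 in BIC1-YFP and rose 1.99-fold (limma, adjusted p = 0.045), with a narrow gap between WT3 and YFP1. AT4G33420, at 263, 316 and 393 units in the wild type and 358, 484 and 582 in BIC1-YFP, overlapped and did not pass (limma, adjusted p = 0.072). It passed without WT3 (0.044), without YFP1 (0.043) and with a batch term for the replicate 1 libraries (0.025). The peroxidases AT2G38390, AT2G41480 and PRXCB stayed called with each library left out in turn. AT1G49570 and AT3G49960 lost their calls without each library but WT3, and PRXCA and AT5G64120 without WT1 or YFP2 (limma, adjusted p between 0.050 and 0.13). Calls in the family, 7 in all, numbered 3 without either of those 2 libraries.

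**Figure D3:**
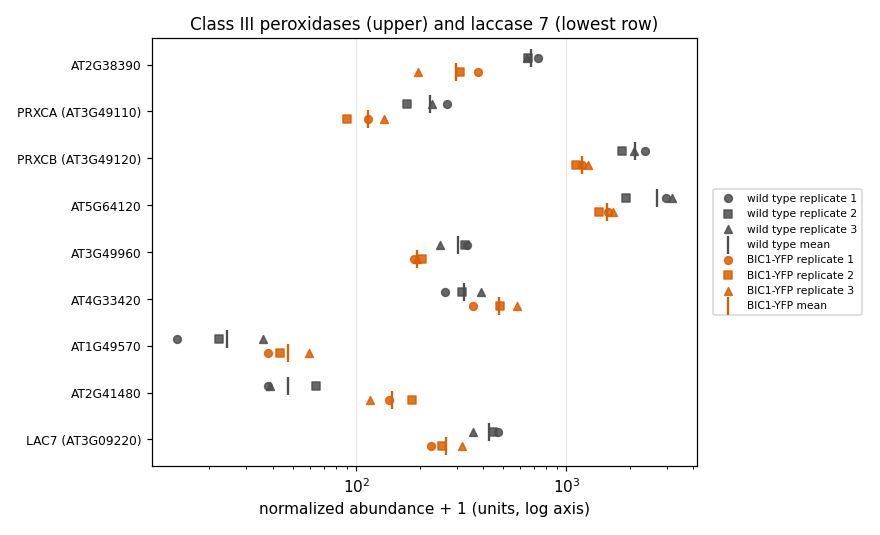
Normalized abundance plus 1 (x axis, log scale) of the 8 class III peroxidases and laccase 7 in wild type (grey) and BIC1-YFP (orange), with 1 symbol shape per replicate and a vertical bar at the mean of 3. AT2G41480 sits between 37.1 and 63.5 units in the wild type and between 115 and 183 in BIC1-YFP, opposite in direction to PRXCB and AT2G38390.

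LAC7 (AT3G09220), a laccase, which is a copper enzyme that oxidises phenolics with oxygen, stood at 471, 445 and 360.3 units in the wild type and 226, 256 and 317 in BIC1-YFP. The genotypes did not overlap, and the fall was 1.6-fold (limma log2 fold change -0.68 with an SE of 0.20, adjusted p = 0.024). The call was lost without WT1, WT2, YFP1 or YFP2 (limma, adjusted p of 0.067, 0.066, 0.057 and 0.071).

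The partners of these enzymes were sparse in the table. Of 17 genes of lignin synthesis, it held PAL1 (AT2G37040) and PAL2 (AT3G53260), which make the first product of the phenylpropanoid pathway, and both fell. PAL1 stood at 7137, 5886 and 5093 units in the wild type and 3642, 3415 and 2862 in BIC1-YFP (1.83-fold lower, limma, adjusted p = 0.0094) and PAL2 at 3989, 3128 and 3121 units in the wild type and 2192, 1949.8 and 2177 in BIC1-YFP (1.62-fold lower, limma, adjusted p = 0.012). Of 10 respiratory burst oxidases, which supply the superoxide from which peroxidases obtain hydrogen peroxide, and of 12 enzymes that hydroxylate and glycosylate extensins, 0 were in the table. Of 20 genes of the secondary wall it held FLA11 and the xylem protease gene XCP1 (AT4G35350), and both rose. XCP1 stood at 558, 642 and 531 units in the wild type and 798, 949 and 795 in BIC1-YFP (1.47-fold higher, limma, adjusted p = 0.023). Of 10 genes of the Casparian strip it held CASP5 (AT5G15290), a membrane scaffold, at 10.0, 18.7 and 18.8 units in the wild type and 24.0, 46.4 and 25.2 in BIC1-YFP, which did not pass (limma, adjusted p = 0.056). Genes outside the table were not analysed here and are not shown to be unchanged.

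Arabinogalactan proteins rose. All 4 members were called higher, against 37.6% of the tested genes, with log2 fold changes of 0.62 to 0.78 and no overlap between the genotypes. AGP12 (AT3G13520), a lipid-anchored arabinogalactan peptide with a very short backbone, stood at 2522, 3511 and 3448 units in WT1, WT2 and WT3 and at 4774, 5745 and 5594 in YFP1, YFP2 and YFP3. Its rise was 1.7-fold (limma log2 fold change 0.78 with an SE of 0.17, adjusted p = 0.013). AGP21 (AT1G55330), a peptide of the same kind linked to root hair formation, stood at 1799, 2771 and 2432 units in the wild type and 3188, 3906 and 3555 in BIC1-YFP (1.52-fold higher, limma, adjusted p = 0.025). The longer proteins AGP26 (AT2G47930) and AGP7 (AT5G65390) stood at 195, 169.6 and 177 units in the wild type and 274, 278 and 366 in BIC1-YFP and at 348, 284 and 287 units in the wild type and 446, 471 and 549 in BIC1-YFP, rises of 1.7-fold and 1.59-fold (limma, adjusted p of 0.018 and 0.019). None of the 4 had a Ser-Pro4 block. AGP7 had a proline codon share of 23.8%, with 20 prolines directly after an alanine, serine or threonine, the setting in which prolines of such proteins take up sugar chains. AGP21 lost its call without WT1, YFP2 or YFP3, and AGP7 without WT2 or YFP2 (limma, adjusted p between 0.053 and 0.079). Calls numbered 2 without YFP2.

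The fasciclin-like arabinogalactan proteins, which add an adhesion domain to that structure, went in opposite directions. FLA11 (AT5G03170), a protein of stem secondary walls, stood at 182, 164 and 180.3 units in the wild type and 276, 273 and 273 in BIC1-YFP. The libraries of each genotype lay close together and far from those of the other (1.56-fold higher, limma log2 fold change 0.64 with an SE of 0.16, adjusted p = 0.017). FLA10 (AT3G60900) stood at 123, 94.5 and 106 units in the wild type and 75.1, 49.3 and 51.9 in BIC1-YFP and fell 1.84-fold without overlap (limma, adjusted p = 0.021). FLA11 lost its call without WT2 or YFP2, and FLA10 without WT1, YFP2 or YFP3 (limma, adjusted p between 0.050 and 0.066). Of these 2 calls, 0 remained without YFP2.

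Glycine-rich proteins also rose: of 12, 10 were called higher and 1 lower (83.3% and 8.33%, against 37.6% and 39.1% of the tested genes). These proteins hold long runs of glycine in place of proline and have been placed in cell walls and at their surface. An in-frame stretch of 150 bases on the coding strand shows where the glycine codons, in capitals, lie densest in GRP3S (chr2:1967590-1967739, plus strand). GRP3S had the smallest adjusted p of all members.
GRP3S: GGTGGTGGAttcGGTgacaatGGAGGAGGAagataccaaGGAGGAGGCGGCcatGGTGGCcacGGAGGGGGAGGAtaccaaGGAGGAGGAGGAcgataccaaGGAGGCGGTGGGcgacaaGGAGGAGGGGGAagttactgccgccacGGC
Glycine codons made up 28.0% of the coding codons of GRP3S. Over the 10 higher genes the share ran from 25.9% to 58.3%, with a median of 38.5%, against a median of 6.14% over all coding genes of the reference.

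GRP3S (AT2G05380) is a short relative of GRP3, a ligand of a wall-associated kinase. It stood at 16339, 14614 and 24383 units in WT1, WT2 and WT3 and at 65843, 58992 and 79087 in YFP1, YFP2 and YFP3. The lowest BIC1-YFP library was far above the highest wild-type library, a 3.69-fold rise (limma log2 fold change 1.91 with an SE of 0.21, adjusted p = 0.0021). A share of 3.14% of its 50-base windows occurs in another coding sequence, most often in GRP3 itself (AT2G05520). AT1G04660 had the largest rise among the members in fold, 8.88-fold, from low values: 4.02, 6.88 and 2.5 units in the wild type and 40.0, 47.4 and 31.6 in BIC1-YFP (limma log2 fold change 2.96 with an SE of 0.39, adjusted p = 0.0036). AT2G05540 stood at 247, 363 and 821 units in the wild type and 772, 1496 and 1707 in BIC1-YFP. WT3 lay above YFP1, so the genotypes overlapped, and the 2.78-fold rise passed (limma, adjusted p = 0.026).

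The other glycine-rich genes that rose changed by 1.47-fold to 1.69-fold and did not overlap between the genotypes. AT1G04800 stood at 2985, 2841 and 3408 units in the wild type and 4564, 4515 and 5231 in BIC1-YFP. AT4G29020 stood at 2034, 2055 and 1972 units in the wild type and 3027, 3186 and 2986 in BIC1-YFP, and AT4G21620 at 1746, 1824 and 1625 units in the wild type and 2407, 2567 and 2664 in BIC1-YFP. In each of these 3 the libraries of a genotype lay close together. GRP5 (AT3G20470), a protein linked to cell elongation, stood at 595, 591 and 546 units in the wild type and 907, 984 and 824 in BIC1-YFP. AT5G46730 stood at 302, 357 and 356 units in the wild type and 538, 649 and 531 in BIC1-YFP, and AT5G61660 at 411, 461 and 369 units in the wild type and 721, 597 and 533 in BIC1-YFP. AT4G30450 stood at 288, 403 and 309 units in the wild type and 458, 653 and 582 in BIC1-YFP. The limma adjusted p of these 7 lay between 0.0092 and 0.028.

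The glycine-rich genes with lower abundance were AT5G49350 and AT4G32920. AT5G49350 stood at 131, 158 and 125 units in the wild type and 90.1, 92.6 and 82.6 in BIC1-YFP (1.56-fold lower, limma, adjusted p = 0.025). AT4G32920 stood at 469, 444 and 299 units in the wild type and 289, 238 and 295 in BIC1-YFP, without overlap by a narrow gap, and did not pass (limma, adjusted p = 0.059). Its coding sequence had 1432 codons and a glycine share of 12.3%, so it was longer and poorer in glycine than the other 11. It passed without WT3 (0.022) and with a batch term for the replicate 1 libraries (0.048). Calls among the 12 genes, 11 in all, numbered 6 without YFP2 and 7 without WT1. AT5G61660 lost its call without each library but YFP3, and also under median-ratio scaling (0.065). AT2G05540 and AT5G49350 lost theirs without WT1, WT2, YFP2 or YFP3, and AT4G30450 without WT1, YFP2 or YFP3. GRP5 lost its call without YFP2 (limma, adjusted p between 0.050 and 0.078 over these losses).

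**Figure D4:**
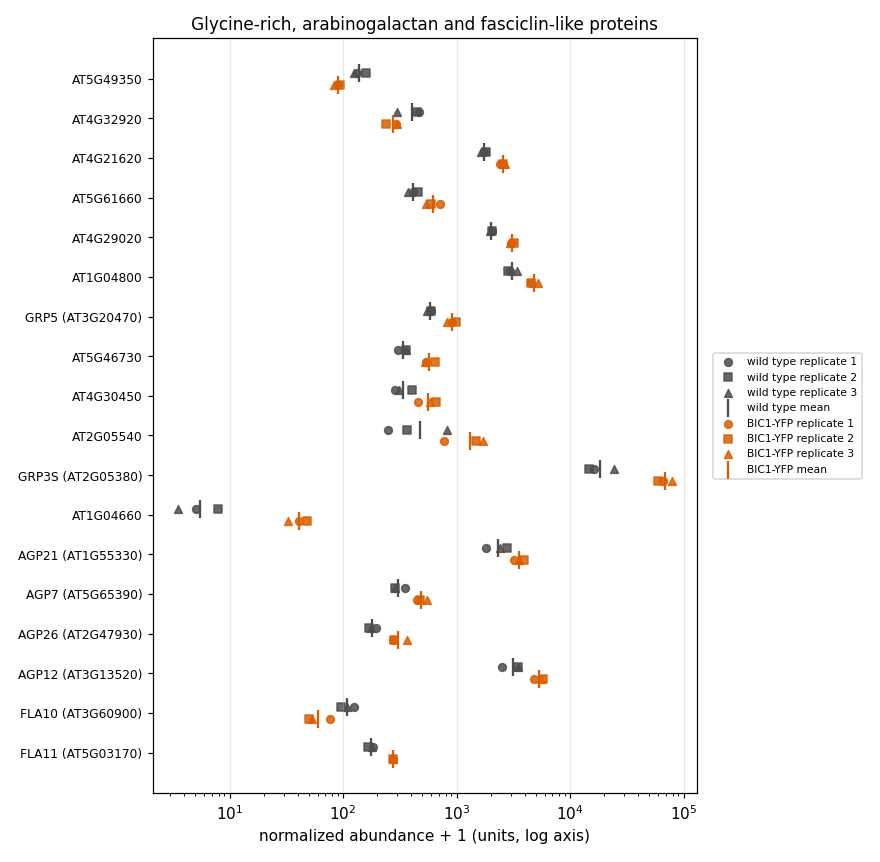
Normalized abundance plus 1 (x axis, log scale) of the glycine-rich, arabinogalactan and fasciclin-like genes in wild type (grey) and BIC1-YFP (orange), with 1 symbol shape per replicate and a vertical bar at the mean of 3. GRP3S lies between 14614 and 24383 units in the wild type and between 58992 and 79087 in BIC1-YFP.

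Members that were lower and members that were higher differed in codon composition, as their families do. The 26 members with lower abundance had a median proline codon share of 23.5% and a median glycine share of 3.09%, and the 26 with higher abundance had medians of 4.30% and 8.44%. The higher members include those that only share a word with the families. All tested genes had nearly the same medians in both directions, with 4.81% proline among the 687 lower and 4.60% among the 770 higher genes that have a nuclear coding sequence in the reference. Exceptions were AT1G26250, PELPK2 and AGP7, which are rich in proline and rose, and AT5G49350, which has a glycine share of 34.8% and fell. Members share repeats and descent, so they are not independent points.

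**Figure D5:**
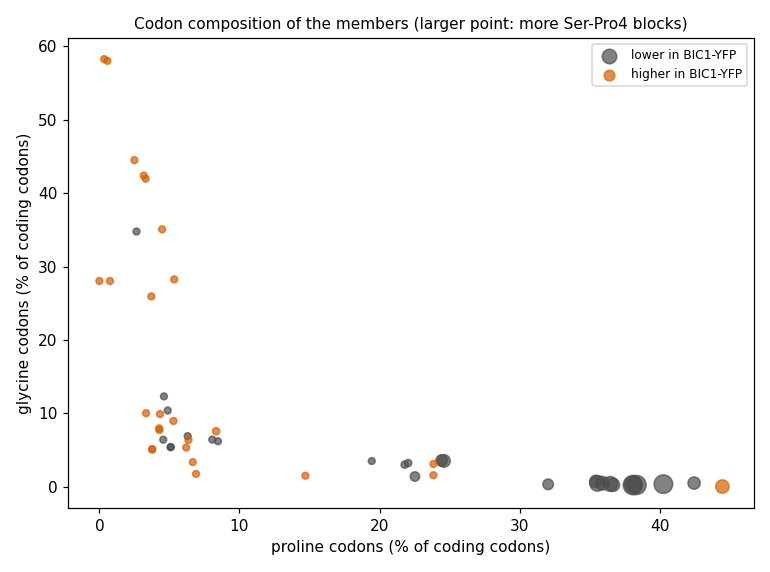
Share of glycine codons (y axis, %) against share of proline codons (x axis, %) in the coding sequence of each of the 52 genes, with point size growing with the number of Ser-Pro4 blocks and colour giving the direction in BIC1-YFP. Genes above 30% proline are lower in BIC1-YFP except AT1G26250 at 44.5%, and genes from 25.9% glycine upwards are higher except AT5G49350 at 34.8%.

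The last members only share a word with these families. TPX2 (AT1G65970), a thioredoxin-dependent peroxidase, which is a peroxiredoxin of the cell interior and not a wall enzyme, stood at 372, 527 and 614 units in WT1, WT2 and WT3 and at 1061, 1698 and 1869 in YFP1, YFP2 and YFP3. It rose 3.06-fold without overlap (limma log2 fold change 1.60 with an SE of 0.28, adjusted p = 0.0067). A share of 15.9% of its 50-base windows occurs in another coding sequence, most often AT1G60740, so part of its reads may come from a copy. AT5G56100, described as both glycine-rich and an oleosin, a protein that coats oil bodies, stood at 188, 243 and 365 units in the wild type and 445, 622 and 793 in BIC1-YFP and rose 2.34-fold (limma, adjusted p = 0.018). The genes related to the pollen allergen Ole e 1 were both higher: SAH7 (AT4G08685) rose 1.6-fold, from 467 ± 61.0 to 747 ± 129.6 units (SD, n = 3; limma, adjusted p = 0.023), while AT2G27385, at 680.3, 1055 and 1011 units in the wild type and 1024, 1549 and 1664 in BIC1-YFP, overlapped and did not pass (limma, adjusted p = 0.056). It passed under median-ratio scaling (0.048), without YFP1 (0.034) and with a batch term for the replicate 1 libraries (0.0099). Both late embryogenesis abundant (LEA) hydroxyproline-rich glycoproteins rose from low values, AT2G46300 with 4.02, 0.741 and 3.4 units in the wild type and 9.01, 12.1 and 8.7 in BIC1-YFP and AT4G05220 with 8.03, 4.29 and 5.66 units in the wild type and 16.0, 18.6 and 17.4 in BIC1-YFP (limma, adjusted p of 0.026 and 0.016). AT2G46300 lost its call without WT2 or any 1 of the 3 BIC1-YFP libraries, SAH7 without WT1, YFP2 or YFP3, and AT5G56100 without YFP2 (limma, adjusted p between 0.051 and 0.074). Of the 3 calls among TPX2, AT5G56100, SAH7 and AT2G27385, 1 remained without YFP2.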

How the data were processed

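Transcript abundance was measured by RNA sequencing (Trizol extraction, Illumina HiSeq, per the labels' protocols) in 3 wild-type and 3 BIC1-YFP libraries. The submitters' processing notes list TAIR10 and Cufflinks. The read counter, library scaling and test that the authors used are not given in the labels or headers. The authors deposited a normalized signal per gene and library, not whole reads, so the depth is unknown and count models were not applied. Its unit is not stated. It was taken as not scaled to length from its low values, which are mostly near whole in WT1 and YFP1 only. The deposited table also holds log2 fold changes and, for each gene, a p-value before and after adjustment. The largest deposited adjusted p-value is 0.0499 and the smallest absolute deposited log2 fold change 0.586, so the 1537 genes are the authors' selection. The deposited log2 fold changes do not equal the ratios of the means, and every fold here was recomputed.

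The 1531 genes that reached 1 unit in 3 or more of the 6 libraries were compared on log2(value + 1) in limma (version 3.58.1, R version 4.3.3), fitted on the whole table with a variance trend and no covariate. This is the test planned for values that are not counts. Folds are ratios of mean units. Values are given for the called members with the largest changes in each family (up to 4 per direction, with a mean of at least 20 units), for called members with a mean of at least 500 units and for uncalled ones with a mean of at least 100; other members were added for completeness. All 52 members matched RefSeq genes by locus tag. Coding and promoter sequences and coordinates are those of RefSeq TAIR10.1, counted from 1, for the longest coding sequence per gene. The procedure was tested on simulated counts in which most genes did not change. The deposited values are not counts and the listed genes were selected for a difference, so that test does not bear on the calls here. The members and lists were chosen with earlier results of these data known. Alternatives were other pseudocounts, filters and scaling, no variance trend, a replicate block, adjustment over the implied number of tests, each library left out and, added after seeing the data, a batch term for the replicate 1 libraries.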

Additional observations from a re-analysis of the deposited data

How the results depend on the processing

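The members called (46, of which 24 higher and 22 lower) numbered 44 to 51 under pseudocounts of 0.5 and 5, no filter, a minimum of 5, median-ratio scaling and limma without trend or with a replicate block, and 49 with a batch term for the replicate 1 libraries. No member changed direction under those of the 15 alternatives in which it was fitted; AT1G26250 was dropped by the minimum of 5. The replicate numbers were checked for pairing: deviations of same-numbered libraries correlated at 0.42, 0.04 and 0.44, which is not above 0.1 for every number, so the numbers are not taken to pair the samples, although the replicate 1 libraries of both genotypes share near-whole low values. With the replicate block 51 members were called and 0 were lost; the 5 gained were AT2G27385 (adjusted p 0.0031), AT5G09480 (0.0063), AT4G33420 (0.0074), AT4G32920 (0.034) and AT1G23720 (0.046). Adjusted over the 21420 implied tests, 1 member was called (1 higher, 0 lower), a glycine-rich one, and 0 in each other family. Of all genes, 50 were then called (25 higher, 25 lower), which follows from the larger number of tests. Leaving out 1 library gave 469 to 1218 calls over all genes (213 to 620 higher, 256 to 598 lower) and 17 to 48 among the members (11 to 23 higher, 6 to 25 lower). By family the range was 3 to 14 for extensins, 0 to 3 for other proline-rich genes, 3 to 8 for class III peroxidases, 0 to 1 for laccase, 2 to 4 for arabinogalactan proteins, 0 to 2 for fasciclin-like proteins, 6 to 11 for glycine-rich proteins, 1 to 2 for LEA proteins and 1 to 4 for the other kinds; the cause of the differences between libraries was not tested. Of the 46 called members, 15 stayed called with each library left out in turn and 31 did not. Under median-ratio scaling all log2 fold changes moved by a median of -0.08. The depth is unknown, so no counting error could be given.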
